A study of Mus musculus with 288 samples.

Results

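The comparison described here is that of livers from mice under CR-spread with livers from mice fed ad libitum (AL) at 6 months of age. Its members were chosen by the sample labels, as every library of both groups, matched by hour of collection. They are 48 of the 288 libraries of the series, 24 in each group. All mice were male C57BL/6J, were housed singly with a running wheel from 8 weeks of age, and took pellets of 300 mg from an automated feeder. AL mice could eat at any time. CR-spread mice were given 70% of the ad libitum amount as single pellets released every 160 min over 24 h, so that they had fewer calories and neither a meal nor a long fast. The 4 other calorie-restricted groups of the series took the same amount in less than 2 h or over 12 h, beginning with the day or with the night (CR-day-2h, CR-day-12h, CR-night-2h and CR-night-12h). The study states that mice were moved to constant darkness for collection, whereas a cycle of light and dark stands in the labels. Livers were taken every 4 h from hour 0 to hour 44, with replicates A and B at each of the 12 time points, and every library comes from a different mouse. RNA was measured as polyadenylated RNA of whole liver, so for a gene of a minor cell type fewer cells and less RNA per cell cannot be told apart. The comparison asks what calorie restriction does to the liver when food is spread evenly around the clock.

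The livers of male and female mice express different sets of secreted proteins, cytochromes P450 and transporters. These sets are known to be set by the pattern of growth hormone secretion, pulsed in males and more even in females, through the transcription factor STAT5B and, below it, the repressors BCL6 in males and CUX2 in females. A circadian clock also runs in liver cells: the activators ARNTL and CLOCK drive the repressor genes Per and Cry and the nuclear receptor genes Nr1d1 and Nr1d2, whose products act back on the activators, and feeding is a strong time cue for this loop and for the metabolic genes around it.

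Total counts were 6.05e+06 to 1.87e+07 per AL library and 4.43e+06 to 8.56e+06 per CR-spread library, and levels are given below as CPM, the counts of a gene scaled to library size by TMM. Some libraries stood apart. In 5 CR-spread livers (hours 4 and 16 of replicate B, hours 28, 32 and 40 of replicate A) the sex-biased genes lay toward the AL level, and these were the CR-spread livers with the most Slco1a1, 88.9 to 243 CPM against at most 15.7 in the others. Among AL livers, that of hour 40, replicate A, lay toward CR-spread for several of the same genes. The AL replicates also differed from each other. The median total was 7.76e+06 in replicate A and 1.59e+07 in replicate B, and the summed markers of sinusoidal endothelial cells had a median of 485 CPM in replicate A and 223 CPM in replicate B, while the same sum was 539 and 579.7 CPM in the CR-spread replicates. Liver identity was plain in every library, since the summed hepatocyte markers stood at 93868 to 161745 CPM. Of 12 pancreas and adipocyte markers 4 were at 0 throughout (Cela3b, Ctrb1, Cpa1 and Amy2a5). The sum of the 12 was 4.37 to 13.8 CPM in AL and 1.75 to 5.56 CPM in CR-spread, and the 1 member tested was lower in CR-spread (log2 fold change −1.12). The feeding groups may also have been processed apart, for which no date is given, so feeding and such a batch cannot be told apart.

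Of 11210 genes tested, 776 differed between CR-spread and AL (6.92%) at an adjusted p under 0.05 and a fold of at least 1.5, in edgeR's quasi-likelihood test with hour as a covariate. Higher in CR-spread were 381 genes (3.4%) and lower were 395 (3.52%). Without the fold threshold 4583 genes passed, 2292 higher and 2291 lower, so differences were many and most were small. Direction was the same in replicate A, in replicate B and in both cycles for 769 of the 776. For 51 genes (0.455%), 16 higher and 35 lower, the ranges of the 24 AL and 24 CR-spread livers did not overlap. Without the 5 CR-spread livers, which were chosen by a gene that changed and so give a description only, the count was 905 and held 747 of the 776.

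The genes that fell furthest were those known to be higher in males. Of 25 tested members of the male-biased list, 24 fell and none rose, with a median log2 fold change of −4.00 beside −0.003 over all genes, and 15 of them had ranges that did not overlap. They include the major urinary proteins, pheromone carriers that the liver secretes for excretion in urine, of which all 14 tested fell. Their sequences are nearly alike and reads may be shared among them, so the values of a single Mup gene are uncertain.

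Mup7 had 173 CPM in the lowest AL liver, 589 in the median and 1019.5 in the highest, against 0, 0.353 and 6.43 CPM in CR-spread. No CR-spread liver came near an AL liver (log2 fold change −9.71 ± 0.32 SE, adjusted p = 4.9e-26), and all 24 together held 105 Mup7 counts against 163852 in AL. This was an 837-fold difference. Mup11 went from 119, 447 and 1263 CPM (lowest, median, highest) to 0, 0.675 and 31.0 CPM, and Mup14 from 14.1, 34.5 and 116 CPM to 0 in 20 of the 24 CR-spread livers. Mup3, the most abundant of them, kept more of its level, with 7311, 10149 and 13427 CPM in AL and 792, 1935 and 6153 CPM in CR-spread (−2.18 ± 0.13, adjusted p = 5.4e-17). Mup20, known as the pheromone darcin, had 1221, 2143 and 4309 CPM in AL and 36.5, 109 and 2807 CPM in CR-spread, and its groups overlapped through the highest of the latter.

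Outside the Mup cluster, genes of several roles fell with them. Slco1a1, an uptake transporter of bile acids and steroid conjugates on chromosome 6 (141907282 to 141946962, GRCm38), had 358, 527 and 809.6 CPM in AL and 0.378, 4.08 and 243 CPM in CR-spread. The groups did not overlap, though the 5 livers described above lay far over the others (−5.16 ± 0.58, adjusted p = 1.4e-09). Serpina1e, which encodes an alpha-1-antitrypsin and shares sequence with its neighbours, went from 814, 3579 and 9845 CPM to 8.16, 14.9 and 1369.9 CPM (−6.95 ± 0.53, adjusted p = 2.4e-14). Hsd3b5, a steroid ketoreductase of male liver, went from 84.2, 184 and 287 CPM to 0, 1.2 and 60.8 CPM (−5.52 ± 0.44, adjusted p = 8.6e-14). Other members fell by similar amounts: the fatty acid hydroxylase Cyp4a12a by 6.32, the glucuronosyltransferase Ugt2b38 by 5.87, the fatty acid elongase Elovl3 by 5.07, Selenbp2 by 4.68 and the organic anion transporter Slc22a28 by 4.19 on the log2 scale. Cyp7b1, the oxysterol hydroxylase of the alternative bile acid pathway, fell less but evenly, with 81.6, 167 and 377 CPM in AL and 22.5, 41.9 and 60.8 CPM in CR-spread, and no liver overlapped (−2.08 ± 0.15, adjusted p = 6.2e-15).

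Genes known to be higher in females moved the other way. All 22 tested members of the female-biased list rose, with a median log2 fold change of 4.13. Cyp2b9, a cytochrome P450 of female liver, was nearly silent in AL, with 0, 0.541 and 9.05 CPM, and had 16.5, 521 and 810.0 CPM in CR-spread. The groups were disjoint (8.07 ± 0.52, adjusted p = 2.3e-16). Its neighbour Cyp2b13 was counted 9 times in all AL livers and 2973 times in CR-spread, where it had a median of 19.5 CPM and was at 0 in 3 livers (8.61 ± 0.62, adjusted p = 4.6e-15). The pair is shown to let near-identical neighbours be compared. The 250 bases before the RefSeq start of each (GRCm38.p6, + strand, chr7:26173159-26173408 and chr7:26061245-26061494) are identical at 248 positions, and capitals mark the 2 that differ.
Cyp2b9: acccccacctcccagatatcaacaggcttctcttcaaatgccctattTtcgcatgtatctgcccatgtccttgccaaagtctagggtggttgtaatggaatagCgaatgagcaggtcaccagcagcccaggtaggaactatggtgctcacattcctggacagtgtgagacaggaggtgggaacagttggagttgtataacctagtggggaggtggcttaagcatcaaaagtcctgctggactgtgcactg
Cyp2b13: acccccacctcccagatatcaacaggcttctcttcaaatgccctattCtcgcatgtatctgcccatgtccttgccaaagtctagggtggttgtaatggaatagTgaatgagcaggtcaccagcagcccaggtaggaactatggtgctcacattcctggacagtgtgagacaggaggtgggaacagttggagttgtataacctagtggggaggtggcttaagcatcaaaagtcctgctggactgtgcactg
The transcripts of the pair were not compared, and whether reads are shared between them was not tested.

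Sult3a1, a sulfotransferase, was counted 8 times over all AL livers and 1577 times in CR-spread, where the lowest liver had 0.406 CPM, the median 10.1 and the highest 27.0 (7.82 ± 0.45, adjusted p = 1e-17). The organic anion transporter Slc22a27 had 0, 0.232 and 1.07 CPM in AL and 3.52, 23.5 and 42.9 CPM in CR-spread, with no overlap (6.15 ± 0.27, adjusted p = 1.5e-21). Others that rose were Slc22a26 (6.75 on the log2 scale), Cyp2c69 (6.61), the steroid hydroxylases Cyp2a4 (5.80) and Cyp2a22 (5.28), Rsph4a, a gene of ciliary radial spokes (4.73), and Cyp2c40 (3.58). Of the 24 male-biased genes that fell, at least 4 of the 5 CR-spread livers with most Slco1a1 were among the 5 nearest to AL for 18, and of the 22 female-biased genes that rose, for 15. The livers were picked by Slco1a1, which itself fell with the male-biased genes, so these counts are a description only. The same count was not made for other called genes. Leaving out the livers nearest to AL widens the difference by construction, and without them 23 of 23 female-biased genes were called higher with a median of 4.58.

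**Figure D1:**
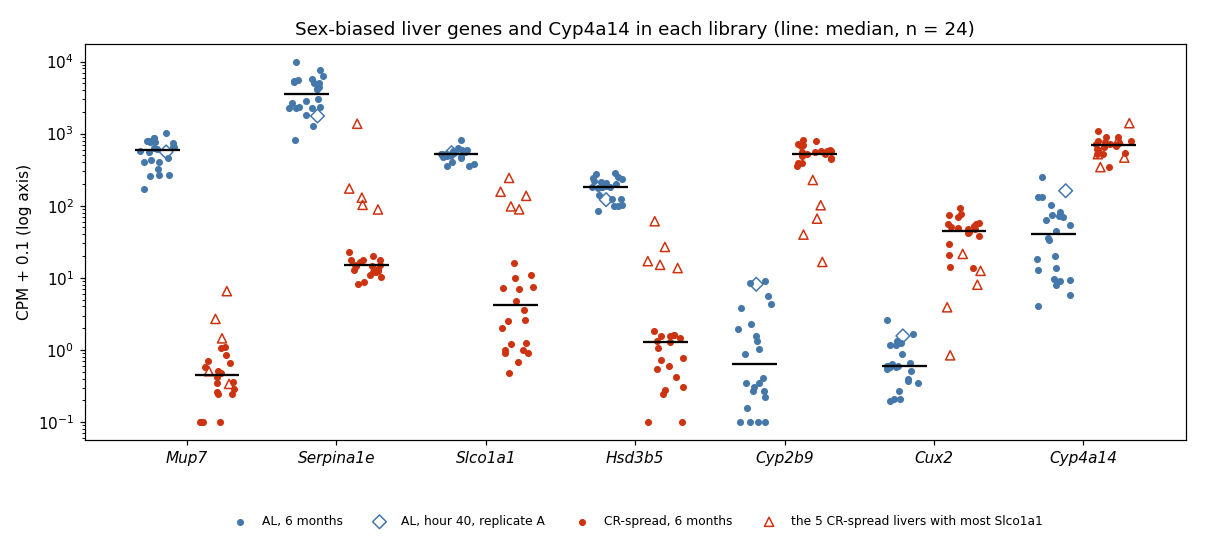
Level of sex-biased liver genes and of Cyp4a14 in each library of 6 months, in CPM plus 0.1 on a log axis, with AL livers in blue, CR-spread livers in red and a black line at the median of each group (n = 24). Open triangles are the 5 CR-spread livers with the most Slco1a1 and the open diamond is the AL liver of hour 40, replicate A: the triangles sit nearest to the AL points for Slco1a1, where they span 88.9 to 243 CPM.

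On the list of growth hormone signalling, which also holds other receptors and transcription factors, 3 of 16 tested genes rose and 5 fell, with a median of −0.12. Cux2, the repressor of female liver, had 0.097, 0.49 and 2.49 CPM in AL and 0.741, 44.7 and 91.5 CPM in CR-spread (5.90 ± 0.31, adjusted p = 1.2e-18), and it overlapped only through the lowest CR-spread liver. Bcl6, the repressor of male liver, went from 5.31, 81.1 and 159.9 CPM to 3.14, 12.0 and 72.8 CPM (−1.99 ± 0.29, adjusted p = 5e-07), with wide overlap. The prolactin receptor gene Prlr rose from a median of 89.9 to 282 CPM (1.58 ± 0.13) and the leptin receptor gene Lepr from 35.3 to 122 CPM (1.59 ± 0.17). The growth hormone receptor gene Ghr fell from 665 to 437 CPM (−0.64 ± 0.06), and its call was lost without replicate B. Egfr (−1.76), Lifr (−0.82) and Onecut1 (−0.93) fell as well. For Stat5b, the main signal carrier (0.12), and its feedback target Socs2 (0.03) the log2 fold change did not pass the test. Igf1, the growth factor made under growth hormone, had a log2 fold change of −0.40 and passed on adjusted p alone (2.9e-06) but not on fold. Among its binding proteins Igfbp3, the main carrier in blood, fell (−0.76), while Igfbp1 (0.98) and Igfbp5 (0.74) rose, and the calls of Igfbp3 and Igfbp5 were lost without replicate B.

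Several genes of terminal complement fell. C6 had 182, 348 and 592 CPM in AL and 10.7, 21.4 and 178 CPM in CR-spread, C8a had 441, 684 and 835 CPM against 37.2, 86.8 and 349 CPM, and C9 had 385, 519 and 747 CPM against 154, 222 and 340.1 CPM. All encode parts of the pore that complement inserts into membranes, and none of the 3 had overlapping groups (log2 fold changes −3.55 ± 0.27, −2.60 ± 0.19 and −1.20 ± 0.08). C6 and C8a also stand on the male-biased list. C8b (−2.01) and the coagulation factor F11 (−1.40) fell, C8g, a further part of the pore, had 0.04 and did not pass, and C3, the central component, rose (0.72 ± 0.06). Of the 31 complement and coagulation genes tested, 5 fell and 1 rose, with a median of 0.02, so the other members lay on both sides of no change.

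The cytochromes P450 of families 1 to 3 and their receptors divided, with 14 of 38 higher and 7 lower. Beside the female-biased members, Cyp2b10, a target of the receptor CAR, rose (4.67), as did the pericentral Cyp2c37 (1.65), and Cyp1a2 fell (−0.80). Among 25 glutathione transferases and NRF2 targets 8 rose and 2 fell. Nqo1, the quinone reductase used as a readout of NRF2, had 1.7, 3.91 and 6.78 CPM in AL and 7.02, 11.8 and 16.8 CPM in CR-spread, without overlap (1.60 ± 0.11, adjusted p = 4.4e-16), and Mgst3 behaved alike with medians of 5.37 and 19.6 CPM (1.87 ± 0.13). Gstp1, a transferase abundant in male liver, went the other way, from 125, 180.5 and 292 CPM to 31.8, 54.2 and 170.4 CPM (−1.79 ± 0.13). The bile acid and drug transporter Slco1a4 rose from a median of 30.5 to 165 CPM (2.45 ± 0.17), while Cyp8b1, the 12-alpha-hydroxylase of bile acid synthesis, fell (−1.22) and Cyp7a1, the rate-limiting enzyme, had a log2 fold change of 0.19 that did not pass.

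Targets of the glucocorticoid receptor rose in 5 of 16 cases and fell in none, with a median of 0.48. Fkbp5, the co-chaperone used as a readout of the receptor, had 8.54, 22.3 and 104 CPM in AL and 27.6, 57.2 and 231 CPM in CR-spread (1.36 ± 0.16, adjusted p = 2e-09), with overlapping groups, and the metallothioneins Mt1 (1.79) and Mt2 (2.13) rose with it. The acute phase proteins were split, 6 of 21 higher and 2 lower: the pentraxin Apcs (1.32), the endotoxin-binding Lbp (1.20) and the siderophore-binding Lcn2 (2.36) rose, and the serum amyloids Saa1 (−0.79) and Saa2 (−0.63) fell, calls that were lost without replicate A and in hours 24 to 44 alone. Hamp2, a relative of the iron hormone hepcidin and female-biased in mice, rose from a median of 58.7 to 527 CPM (2.80 ± 0.26). Genes of blood-borne signals from the liver fell in 3 of 19 cases, namely the deiodinase Dio1 (−1.08), the thyroxine-binding globulin gene Serpina7 (−0.92) and the hepatokine Inhbe (−0.97).

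**Figure D2:**
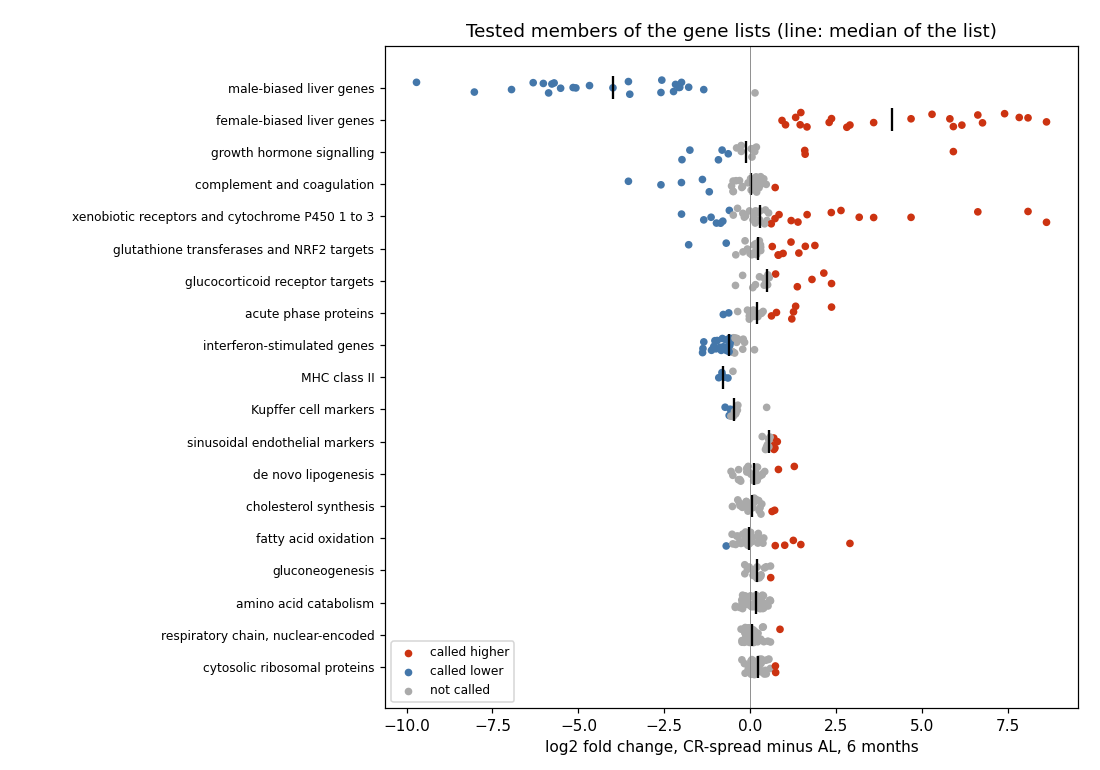
Log2 fold change of CR-spread against AL at 6 months for each tested member of 19 gene lists, 1 point per gene, in red where called higher, blue where called lower and grey where not called, with a black line at the median of the list. The male-biased list lies at a median of −4.00 and the female-biased list at 4.13, while the lists of energy metabolism in the lower rows are narrow and centred near 0, with a few red members such as those of fatty acid oxidation.

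Interferon-stimulated genes were lower under CR-spread. Of 35 tested, 21 fell and none rose, with a median of −0.61, and 32 were lower on adjusted p alone. Ifit1, an effector that binds foreign RNA, had 9.74, 17.6 and 29.6 CPM in AL and 3.21, 6.17 and 21.9 CPM in CR-spread (−1.38 ± 0.13, adjusted p = 5.7e-12). Irf7, the factor that amplifies interferon signalling, had 28.7, 37.3 and 51.3 CPM against 9.08, 17.4 and 40.8 CPM (−1.03 ± 0.10, adjusted p = 3.7e-11). For both genes the groups overlapped through the highest CR-spread livers. Ifit3 (−1.09) fell too, as did the chemokines Cxcl9, from a mean of 15.5 to 7.87 CPM, and Cxcl10 (−0.79), whose calls were lost without replicate A. Within replicate A alone 24 of 35 were called lower and within replicate B alone 19 of 36, with medians of −0.72 and −0.59.

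Genes of antigen presentation and of Kupffer cells, the macrophages of the liver, were lower as well. Of 6 genes of MHC class II or its loading 5 fell, with a median of −0.79. H2-Aa had 9.62, 22.9 and 40.9 CPM in AL and 5.06, 11.7 and 21.1 CPM in CR-spread (−0.92 ± 0.13, adjusted p = 2.1e-07). Among 14 Kupffer cell markers 3 fell, the lectin Clec4f (−0.59), the folate receptor Folr2 (−0.74) and Adgre1, the antigen F4/80 (−0.62), and 13 were lower on adjusted p alone. The summed Kupffer markers had 119, 265 and 383 CPM in AL and 120.5, 179 and 272 CPM in CR-spread, and the summed T and NK cell markers 3.6, 6.51 and 12.8 CPM against 1.67, 3.25 and 8.33 CPM, so markers of these cells moved with the immune genes. Only 1 of 10 T and NK cell markers was tested, Cd4, and its mean of 2.89 CPM in AL and 0.531 CPM in CR-spread is a large part of that sum. Their part in the result was not tested. The fall of the class II and Kupffer lists leaned on replicate A, where 6 of 6 and 10 of 14 were called, against 1 of 6 and 1 of 14 in replicate B.

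Endothelial markers show the same limit more sharply. Of 13 markers of liver sinusoidal endothelium 5 rose, among them the growth factor receptor Kdr (0.78) and the lectin Clec4g (0.71), with a median of 0.54. In replicate B alone all 13 were called higher, with a median of 1.17, and in replicate A alone none was, with a median of 0.10. The AL livers of replicate B had the low endothelial sums given above, 148 to 401 CPM, against 418 to 552 CPM in AL replicate A, 476 to 585 CPM in CR-spread replicate A and 456 to 632 CPM in CR-spread replicate B. The list therefore separates the AL livers of replicate B from all others. Alas2, the haem synthesis enzyme known from red cell precursors, fell from 37.6, 73.4 and 94.9 CPM to 8.44, 14.3 and 48.6 CPM (−2.16 ± 0.14, adjusted p = 1e-16) while 4 other erythroid genes rose, among them the haemoglobin gene Hba-a2 (1.57). Without replicate B none of these 4 calls remained.

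Average levels of most genes of energy metabolism were near those of AL. None of 46 genes of amino acid catabolism, 8 of the urea cycle, 14 of fasting signals and ketogenesis, 17 heat shock genes or 18 of autophagy passed both thresholds, although on adjusted p alone 18 and 7 of the amino acid genes were higher and lower. Fasn, the fatty acid synthase, had 805, 3522 and 6182 CPM in AL and 917, 3868 and 7645 CPM in CR-spread, an overlap of nearly the whole range (0.21 ± 0.22, adjusted p = 0.49). Pck1 and G6pc, which open and close gluconeogenesis, had log2 fold changes of 0.30 and 0.08, and the fasting hormone gene Fgf21 of 0.31, none past the test. Of 24 lipogenic genes 2 rose, the desaturase Scd2 (1.28) and the elongase Elovl6 (0.81), the latter lost without replicate B.

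A smaller set of fatty acid genes did change. Cyp4a14, an omega-hydroxylase of fatty acids and a well-known target of the receptor PPARA, had 4.0, 39.8 and 249 CPM in AL and 339, 692 and 1397 CPM in CR-spread, with no overlap (3.72 ± 0.36, adjusted p = 3.8e-11). Cyp4a10 (1.65), the peroxisomal thioesterase Acot3 (2.89) and the peroxisomal transporter Abcd2 (1.47) rose also. Ppara itself was lower with a log2 fold change of −0.56 that passed on adjusted p alone (1.4e-07), and Cpt1a, the gate of mitochondrial oxidation, had −0.22 and did not pass. Of 36 genes of fatty acid oxidation 5 rose and 1 fell, with a median of −0.04. Among lipid droplet genes and PPARG targets the fatty acid translocase Cd36 had 5.3, 15.1 and 32.1 CPM in AL and 25.9, 35.5 and 66.1 CPM in CR-spread (1.26 ± 0.16, adjusted p = 1.2e-08), and the lipoprotein receptor Vldlr rose from a median of 2.18 to 12.4 CPM (2.37 ± 0.17). For both genes the groups overlapped, for Vldlr through the lowest CR-spread liver only.

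Rhythms were compared next, because CR-spread removes the daily feeding cycle that AL mice keep. A cosine of 24 h was fitted in each group, and a gene was called cycling at an adjusted p under 0.05 and a peak at least 1.5 times the trough. In AL 2189 genes cycled (19.5%) and in CR-spread 1566 (14%), with 852 in both. The rhythm itself differed between groups for 624 genes (5.57%, edgeR quasi-likelihood test of the cosine and sine terms together), and of these the amplitude was larger in AL for 407 and in CR-spread for 217. Where the 624 were also rhythmic in both groups on adjusted p, 219 peaked earlier in CR-spread and 69 later. Much of this lean was general. Of all 1715 genes rhythmic in both groups on adjusted p, 1176 peaked earlier in CR-spread. The amplitude was smaller in CR-spread for 56.2% of all genes tested, beside 65.2% of the 624. The counts of cycling and differing genes rest on both replicates. With replicate B alone 1647 genes cycled in AL, 379 in CR-spread and 85 differed, and with replicate A alone 2649, 2400 and 127. The order of the groups turned with the hours used, since over hours 0 to 20 alone 1162 genes cycled in AL and 1437 in CR-spread, over hours 24 to 44 alone 1355 and 391, and without hours 24, 36 and 44 2059 and 2078. Among 2174 genes picked because they cycled in the mice of 19 months, the median amplitude at 6 months was 0.355 in AL and 0.272 in CR-spread on the log2 scale, and the median peak came 1.51 h earlier in CR-spread.

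The clock kept running under CR-spread, with earlier fitted peaks and smaller fitted amplitudes. The smaller amplitude came mostly from hours 24 to 44, as described below. Of 26 tested genes of the clock and its outputs 25 cycled in AL and 24 in CR-spread, and the rhythm differed for 15 (57.7%), Pck1 among them as an output. Amplitude was smaller in CR-spread for 25, with a median of 62.2% of that in AL beside 90.0% over all genes tested. Of 24 rhythmic in both groups 22 peaked earlier, by a median of 1.75 h, beside a median shift of −1.16 h over all genes rhythmic in both. In average level Per1 (0.73) and Usp2 (0.62) rose and Bhlhe41 (−1.94) and Gys2 (−0.66) fell, and the rest of the 26 were not called. These are a larger share of the 26 than the 6.92% called over all genes tested. The call of Per1 was lost without replicate A, that of Gys2 without replicate B and that of Usp2 without either.

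The rhythm differed for all 3 activators, in the test that takes amplitude and peak time together. Arntl had an amplitude, from the mean to the peak, of 2.48 ± 0.23 (SE, log2 scale) in AL and 1.65 ± 0.23 in CR-spread, and its peak moved from hour 22.3 to hour 19.7 (adjusted p = 0.0048). Npas2 went from an amplitude of 3.65 to 2.13 with a shift of its peak of −1.11 ± 0.86 h, little beyond its SE. Clock went from 0.91 to 0.55 with a shift of −2.35 ± 0.85 h. Among the repressors Cry1 kept its amplitude, 1.45 and 1.37, and peaked at hour 17.2 instead of 19.4 (adjusted p = 0.0056). Per3 was damped from 2.51 to 1.45, whereas for Per1, Per2 and Cry2 the difference did not pass (adjusted p = 0.11, 0.16 and 0.85). The nuclear receptor genes moved earlier together: Nr1d1 from hour 7.0 to 4.8 (adjusted p = 0.0074) and Nr1d2 by 1.85 h (0.011). Of the output factors Dbp went from an amplitude of 3.63 ± 0.34 to 2.47 ± 0.34 and from hour 9.9 to 7.2 (adjusted p = 0.00084), Tef from 1.56 to 0.76 in amplitude, and Nfil3 kept 1.22 while it peaked at hour 19.1 instead of 21.8. With 1 replicate alone, whichever it was, the calls of Arntl, Nr1d1, Nr1d2, Tef, Per3 and Nfil3 were lost, as were those of Ciart, Dbp, Npas2 and Clock without replicate A and of Cry1 without replicate B.

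Ciart, which encodes a repressor of CLOCK and ARNTL, had the smallest adjusted p for the rhythm difference among these genes (0.00042). Its amplitude was 3.36 ± 0.29 in AL and 1.69 ± 0.29 in CR-spread, with a peak at hour 11.4 and 8.5. The mean at its low point, hour 0 of the cycle, was 0.12 CPM in AL and 1.73 CPM in CR-spread, and its highest mean was 26.0 and 16.4 CPM. Its promoter is shown as that of a direct clock target. The 250 bases before the RefSeq start (GRCm38.p6, − strand, chr3:95882229-95882478) hold the E-box CACGTG, the palindrome that CLOCK and ARNTL bind, 3 times, in capitals.
Ciart: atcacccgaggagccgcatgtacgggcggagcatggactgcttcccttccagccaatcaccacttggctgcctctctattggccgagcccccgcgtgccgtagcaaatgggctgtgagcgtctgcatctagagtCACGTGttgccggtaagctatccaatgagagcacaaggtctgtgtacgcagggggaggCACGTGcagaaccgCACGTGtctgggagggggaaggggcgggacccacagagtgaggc
The same letters occur in 7 of 27 promoter windows of the clock genes (25.9%, from 21 genes matched by symbol), in 6.02% of 32851 windows of all genes, in none of 21 windows of male-biased and in 1 of 28 of female-biased genes. The palindrome TTCNNNGAA, to which STAT5 binds, lies in 7.02% of all windows, in 4 of 28 of the female-biased (A1bg, Hamp2, Slc22a26 and Sult3a1) and in 1 of 21 of the male-biased (C8a). A match is a description of the sequence only.

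**Figure D3:**
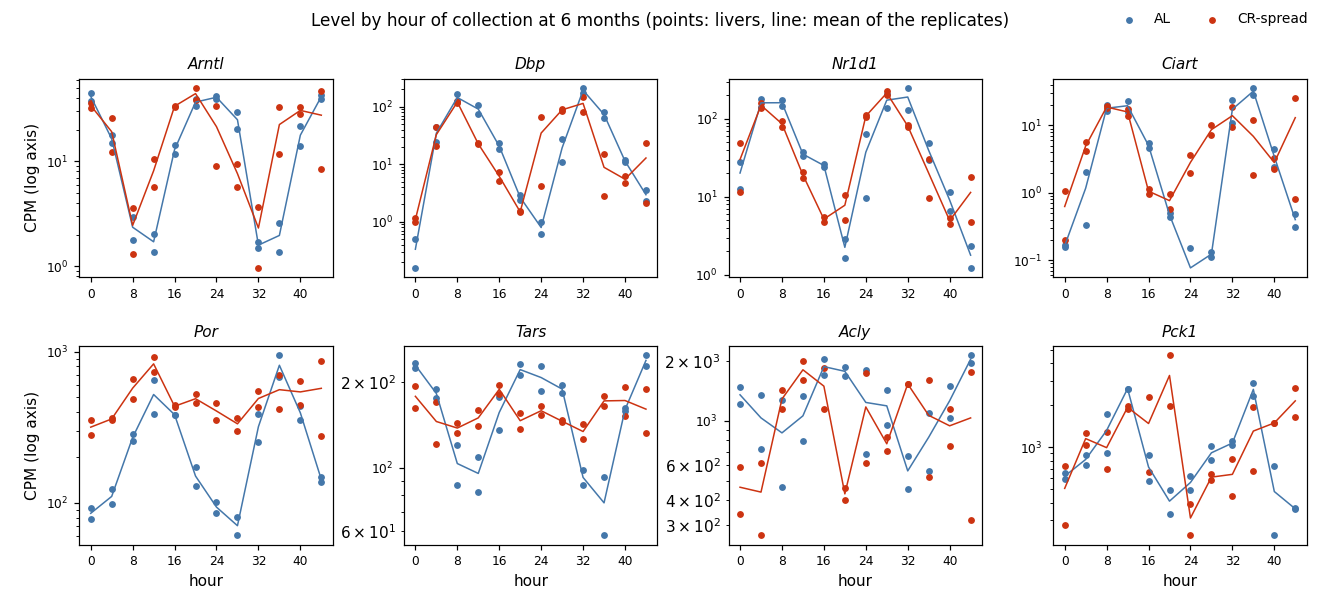
Level of 8 genes at each hour of collection at 6 months, in CPM on a log axis, with AL livers in blue, CR-spread livers in red (2 points per hour and group) and lines through the mean of the replicates. A level of 0 has no place on the log axis and is left out. The 2 groups lie closer together for Arntl, Dbp, Nr1d1 and Ciart up to hour 20 than from hour 24, when the CR-spread replicates lie far apart at some hours, and Por and Tars swing less in CR-spread than in AL.

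The loss of amplitude was not even over the 2 cycles. Over hours 0 to 20 the median amplitude of the 26 genes was 1.43 in AL and 1.30 in CR-spread, smaller in CR-spread for 19, and over hours 24 to 44 it was 1.60 and 0.650, smaller for 25. The earlier peak was present in both cycles, with 25 of the 26 genes earlier in CR-spread in the first and 20, at a median shift of −2.03 h, in the second. Ciart went from an amplitude of 3.12 in AL to 2.60 in CR-spread in the first cycle and from 3.62 to 0.88 in the second, and Per2 from 1.34 to 1.47 and from 1.60 to 0.61. In step with this, the replicates of an hour differed more in CR-spread late in the series. The median difference between replicates A and B over the clock genes was 0.182 to 0.490 on the log2 scale in AL across the 12 hours, while in CR-spread it reached 0.810 at hour 24, 0.988 at hour 36 and 1.59 at hour 44. Since each liver is from a separate mouse, a weaker rhythm within mice and a spread of phases between mice cannot be told apart.

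Outside the clock, the genes with the smallest p for the difference in rhythm were mostly damped. Por, the electron donor of all microsomal cytochromes P450, went from an amplitude of 1.51 ± 0.10 to 0.42 ± 0.10 with its peak near hour 13 in both groups (adjusted p = 1.4e-05). Its mean ran from 89.5 CPM at hour 0 to 668 CPM at hour 12 in AL and from 347 CPM at hour 4 to 697 CPM at hour 12 in CR-spread, so that the peak was kept and the trough was filled. The threonyl-tRNA synthetase gene Tars (0.76 to 0.14), the tubulin gene Tubb2a (1.76 to 0.35), the cationic amino acid transporter gene Slc7a2 (0.97 to 0.11), the basement membrane gene Nid2 (0.81 to 0.12) and the manganese exporter gene Slc30a10 (0.97 to 0.30) lost most of their amplitude. Irs2, the insulin receptor substrate, gained it, from 0.71 to 1.15, and moved its peak from hour 1.6 to 18.8 (adjusted p = 1.4e-05). Tbc1d30 moved from hour 10.4 to 17.0, Pxmp4, a peroxisomal membrane gene, from 22.3 to 17.5, and Epb41l4b from 11.2 to 5.2.

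Among genes that make fat the rhythm differed for 11 of 24 (45.8%). Of the 24, 13 cycled in AL and 8 in CR-spread, and the median amplitude was 0.399 and 0.490. Acaca, which makes malonyl-CoA, peaked at hour 20.2 in AL and 13.8 in CR-spread (adjusted p = 0.0039), its mitochondrial relative Acacb 5.48 h earlier (0.028), and the citrate lyase Acly at 19.9 and 11.6 (0.021). Fasn differed in rhythm (0.035) but did not pass the test of cycling in either group, so that no shift of its peak is given. Srebf1, the factor that drives them, had an amplitude of 0.42 in AL and did not pass the test of cycling there. In CR-spread it cycled (0.89, adjusted p of the difference 0.0057) with a peak at hour 6.0. The spread between livers of the same hour was large for these genes, as the plot of levels by hour shows for Acly.

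A pair of genes of gluconeogenesis peaked later. Pck1 peaked at hour 9.5 in AL and 15.6 in CR-spread (adjusted p = 0.003), and the aminotransferase Got1 at 10.1 and 15.7 (0.00064). G6pc had an amplitude of 0.16 in AL and 0.84 in CR-spread (0.024), and the serine dehydratase Sds was damped from 1.22 to 0.39 (0.0074). These were 4 of 17 genes tested, and the call of Pck1 was lost with either replicate alone. Of 36 genes of fatty acid oxidation 9 cycled in AL and 2 in CR-spread, counts that do not by themselves show a difference and that leaned on replicate and hours as above. The fitted amplitude was smaller in CR-spread for 25 of the 36, beside 56.2% of all genes tested. Among the 7 whose rhythm differed (19.4%) Cpt1a went from 0.56 ± 0.06 to 0.16 ± 0.06 (adjusted p = 9.6e-05). Pdk4, the kinase that shuts pyruvate oxidation, went from 2.13 to 0.88 and Cyp7a1 from 1.08 to 0.29. No rhythm difference was called among 42 ribosomal protein genes, 52 nuclear genes of the respiratory chain or 17 heat shock genes, of which 15 cycled in AL and 12 in CR-spread.

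**Figure D4:**
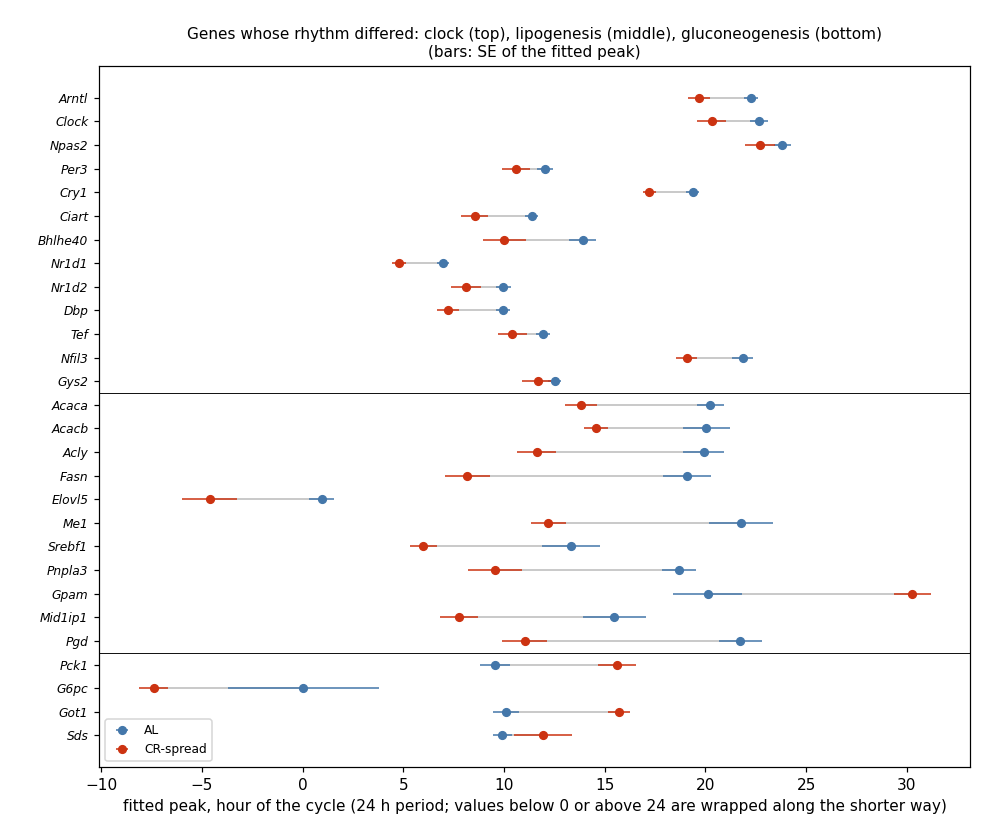
Fitted hour of the peak in AL (blue) and CR-spread (red) for the genes whose rhythm differed among clock genes and outputs (13 drawn, top, with Pck1 at the bottom), de novo lipogenesis (11, middle) and gluconeogenesis (4, bottom), with bars of 1 SE and a grey line along the shorter way between them. Fitted peaks are drawn also where a group did not pass the test of cycling. Clock peaks moved to earlier hours by a few hours, that of Acly by more (from 19.9 to 11.6), and those of Pck1 and Got1 to later hours.

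At 19 months the contrast of the same diets, in other mice, gave another picture. The paper states that AL mice ate more after the first year and that restricted rations were not raised. Restriction relative to AL was therefore stronger at 19 months, and age and degree of restriction cannot be told apart. Of 11884 genes tested in the 96 libraries of both ages, 1164 differed between CR-spread and AL at 19 months (9.79%), 262 higher (2.2%) and 902 lower (7.59%), and the effect itself differed between ages for 1577 (13.3%, edgeR interaction test). Of the 381 genes higher at 6 months 54 were higher at 19 months (14.2%), 35 were lower and 244 had an interaction toward lower. Of the 395 lower at 6 months 119 were lower (30.1%), 35 higher and 217 had an interaction toward higher. The interaction subtracts the same 6-month difference that picked these genes. An interaction toward the other side is thus favoured by the choice, and these counts are a description only.

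Sex-biased genes are prominent among the genes whose feeding effect differed between the ages. Of 27 male-biased genes tested at both ages 10 were higher under CR-spread at 19 months and 1 was lower, and 26 had an interaction, and of 25 female-biased genes 4 were higher and 6 lower, with 23 interactions. Mean Slco1a1 was 526 CPM in AL and 33.4 CPM in CR-spread at 6 months, and 80.1 and 187 CPM at 19 months (interaction 6.94 ± 0.87, adjusted p = 2.9e-10). Mean Hsd3b5 was 181 and 6.17 CPM at 6 months and 9.35 and 44.8 CPM at 19 months (interaction 8.15 ± 0.85), so that CR-spread livers were below AL when young and above it when old. Mean Cyp2b9 was 2.06 and 468 CPM at 6 months and 152 and 42.6 CPM at 19 months (interaction −10.05 ± 0.76). The complement genes C6 (−3.48 at 6 months and 0.70 at 19 months) and C8b (−2.01 and 1.13) turned, as did Gstp1 (−1.79 and 0.87) and Adgrf1 (−2.28 and 2.86). Mup7 was low in both groups at 19 months: its mean was 581 CPM in AL and 0.735 CPM in CR-spread at 6 months, and 13.4 and 7.9 CPM at 19 months. Of 16 major urinary protein genes tested at both ages 15 had an interaction toward higher, with median log2 fold changes of −4.05 and −0.82.

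For Cd36 and Vldlr, which take up lipids, the difference turned with age. Mean Cd36 was 16.2 CPM in AL and 37.6 CPM in CR-spread at 6 months, and 226 and 59.8 CPM at 19 months (interaction −3.18 ± 0.23, adjusted p = 3.6e-20), and Vldlr had log2 fold changes of 2.34 and −0.88. Of the 27 lipid droplet genes and PPARG targets tested at both ages, 9 had an interaction toward lower and none toward higher, with medians of −0.13 at 6 months and −0.56 at 19 months. Immune lists behaved in different ways. Class II genes were lower at both ages, 7 of 7 at 19 months with a median of −1.27, and 12 of 14 Kupffer markers were lower there, while of 37 interferon-stimulated genes 9 were lower at 19 months, with a median of −0.15 and 8 interactions toward higher. H2-Aa had log2 fold changes of −0.93 and −1.05 with an interaction of −0.12 ± 0.22 that did not pass (adjusted p = 0.7), and Irf7 of −1.03 and −0.03 with an interaction that did (adjusted p = 0.0062).

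**Figure D5:**
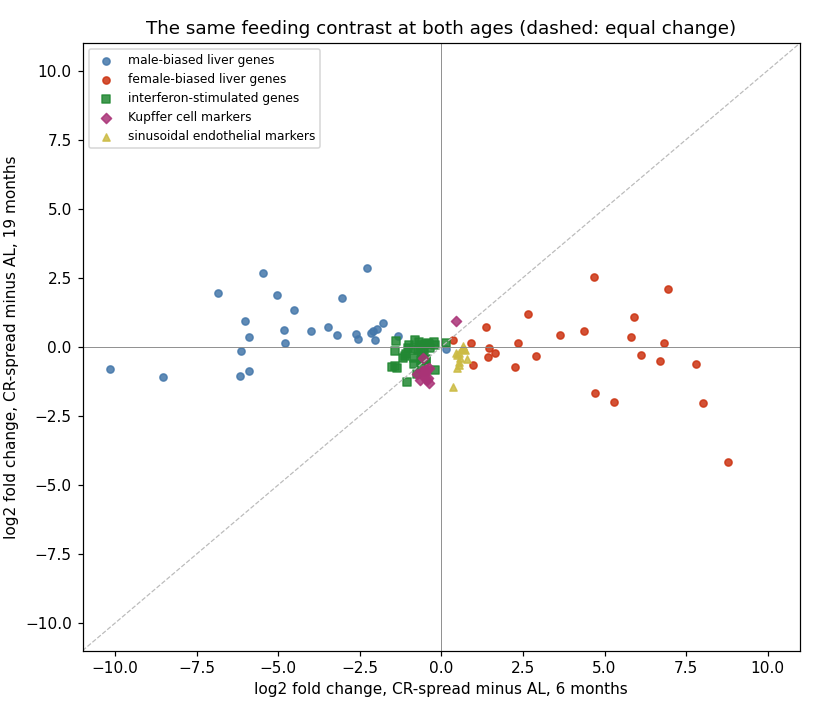
Log2 fold change of CR-spread against AL at 6 months (horizontal) and at 19 months (vertical) for the members of 5 gene lists, 1 point per gene, with a dashed line where both would be equal. Male-biased genes lie far to the left and female-biased genes far to the right, yet both are near or across 0 on the vertical axis (medians 0.50 and −0.05), whereas Kupffer cell markers, apart from Marco, lie below 0 at both ages.

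The other restricted groups at 6 months give the setting of CR-spread among diets of equal calories. In a fit of all libraries of that age (11434 genes), which share the AL mice, the genes that differed from AL were 7.03% in CR-spread, 7.54% in CR-day-2h, 6.14% in CR-day-12h, 6.2% in CR-night-2h and 6.27% in CR-night-12h. CR-spread differed from CR-day-12h in 65 genes (0.568%), from CR-night-12h in 151 (1.32%), from CR-day-2h in 231 (2.02%) and from CR-night-2h in 253 (2.21%). These counts leaned on the replicates, since with replicate B alone they were 14, 3, 47 and 54 and with replicate A alone 61, 463, 813 and 438. Of 36 genes of fatty acid oxidation 8 were higher than in CR-spread in CR-day-2h, 5 in CR-day-12h, 4 in CR-night-2h and none in CR-night-12h, and none was lower in any of them. Those of CR-day-2h include Ech1 (0.84), Ehhadh (1.20), Acaa1b (1.26) and Eci1 (0.62), enzymes of mitochondrial and peroxisomal beta-oxidation. Retsat, a retinol saturase, was higher in CR-day-2h as well (1.27), and Cyp2c70, which makes muricholic acids, was lower in CR-day-2h (−1.06), CR-day-12h (−0.63) and CR-night-2h (−0.85) than in CR-spread. In CR-night-2h 16 of 36 interferon-stimulated genes were higher than in CR-spread, with Irf7 at 35.5 CPM against 18.9 CPM (0.92 ± 0.11, adjusted p = 1.8e-10). In CR-night-12h the sex-biased lists lay closer to AL, as 23 of 26 male-biased genes were higher than in CR-spread with a median of 1.57, and 9 of 25 female-biased genes were lower. With replicate B alone only 3 genes of any kind differed here, so at most 3 of these calls could hold there. The lists leaned the same way by less in CR-day-2h, CR-day-12h and CR-night-2h. Male-biased medians against CR-spread were 0.44, 0.43 and 0.62, and female-biased medians −0.30, −0.43 and −0.33, beside −0.61 in CR-night-12h. Mean Mup7 was 15.9 CPM in CR-night-12h, 0.745 CPM in CR-spread and 586 CPM in AL.

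CR-spread differed from all 4 of the other restricted groups for 6 genes (0.0525%). Nat8, an acetyltransferase gene, Zbed5, Cyp4a32 and Mup7 were lower in CR-spread than in each of them and lower than in AL. Gstt2 had a mean of 29.3 CPM in CR-spread and 29.4 CPM in AL, below 43.3 to 60.0 CPM in the others. mt-Nd3, the only one of the 6 that was higher in CR-spread than in the others, rests on 1 CR-spread liver at 154 CPM beside a median of 5.02 CPM.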

How the data were processed

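The authors prepared TruSeq libraries from Trizol-extracted liver RNA and deposited raw, unnormalized counts per gene. Their processing notes name FastQC, cutadapt, STAR and featureCounts without versions. Which genome build was used is not stated in them or in the main text of the paper, and its supplementary text was not read. Libraries hold 4.43e+06 to 1.87e+07 counts, so rare genes are left out by the expression filter, and RPKM values that were also deposited were not used. Gene names are those of the files. Of their versioned identifiers 83.7% occur in GENCODE M21, and gene coordinates (GRCm38) are given only where the identifier is the same. No value column was left unmapped (0), all libraries differed from each other, and 44 genes with a shared symbol were told apart by identifier.

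Genes were filtered with filterByExpr, 11210 of 21869 in the main comparison, scaled with TMM and tested with edgeR 4.0.16 (quasi-likelihood F tests) in R 4.3.3, on the 24 AL and 24 CR-spread libraries with hour of collection as a factor. A change was called at a Benjamini-Hochberg adjusted p under 0.05 and a fold of at least 1.5. Rhythms were tested with a cosine and a sine of 24 h per group, their difference by an F test of both terms, and amplitudes, peaks and SEs were computed with limma 3.58.1. The interaction with age used 96 libraries and the contrasts with the other restricted groups every library of 6 months. The labels call the replicates biological, and p-values measure the spread between these mice. Tested on simulated data, the main test recovered 100 of 100 genes changed 2-fold with no false call, the test of cycling in CR-spread 80 of 100 genes of 2-fold and 99 of 100 of 4-fold range from trough to peak, with 5 false calls, and the rhythm difference test 58 and 93 of 100 with 13 false calls, so weak rhythms and small differences of rhythm are missed.

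The libraries and the 55 gene lists were chosen with earlier results of these data known. Lists are described by counts and medians, without a set test. Named are the 15 genes that rose and the 15 that fell most among those with at least 1 CPM in a group and the same direction in both replicates and both cycles, the 4 smallest p of every list, all clock genes, the 10 genes with the smallest p for the rhythm difference, and 5 in each direction for the interaction and for each other restricted group. Not all of these are printed, some genes are not reported here, and further genes of the lists were named after their values were seen. Alternatives were another size factor (RLE), DESeq2 1.42.0, other filters, thresholds and model terms, thinning to equal depth, each replicate and each cycle alone and, chosen after seeing the data, leaving out the libraries that stood apart. Promoter windows are RefSeq's, 250 bases before each start, searched for CACGTG and TTCNNNGAA, which read the same on both strands.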

Additional observations from a re-analysis of the deposited data

Results flagged for a closer look

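The feeding effect of CR-spread differed between the ages for 1577 genes by the edgeR interaction test. Among the genes with the smallest p, the interaction (19 months minus 6 months, log2) was 2.66 for Gstp1, 4.19 for C6, 3.14 for C8b, 1.41 for C9 and 5.14 for Adgrf1, all lower under CR-spread at 6 months and, except for C9, higher at 19 months. It was −6.42 for Slc22a27, −7.31 for Cyp2a22, −12.95 for Cyp2b13, −3.70 for Cyp2c39 and −3.07 for Acnat2, all higher under CR-spread at 6 months. Of these, Cyp2a22 and Cyp2b13 were lower under CR-spread at 19 months.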

How the results depend on the processing

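The 776 genes called between CR-spread and AL became 1343 without a filter on low counts, 4583 on adjusted p alone and 256 at a fold of at least 2, and ranged from 760 to 1168 with either replicate left out. Without replicate A 647 of the 776 were called again in the same direction and without replicate B 519, and none turned direction in any alternative. The other alternatives gave 653 (thinned to equal depth) to 918 genes, with 770 by DESeq2, which gave every named gene an adjusted p.

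Rhythm counts moved more. Leaving out a replicate gave 1647 to 2649 cycling genes in AL, 379 to 2400 in CR-spread, 85 to 127 with a rhythm difference, and a share with the smaller amplitude in CR-spread of 58.3% to 67.8%, beside 67.4% with all libraries. On adjusted p alone 4267 genes cycled in AL and 2837 in CR-spread. With hour of day as a factor 232 rhythm differences were called instead of 624, and with cosines of 24 h and 12 h together 303. The next alternatives were chosen after seeing the data. Hours 0 to 20 gave 1162 cycling genes in AL and 1437 in CR-spread, 70 rhythm differences and a share of 52.2%, and hours 24 to 44 gave 1355 in AL, 391 in CR-spread, 25 differences and a share of 71.5%, both from fewer libraries. Without hours 24, 36 and 44 cycling genes were 2059 in AL and 2078 in CR-spread, so that here, as in hours 0 to 20, more cycled in CR-spread, and the share was 57.8%. It was 64.4% without the 5 CR-spread livers with most Slco1a1. The smaller amplitude in CR-spread thus leaned on the late hours, where the replicates lay apart, and the cause was not tested.

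The count of age interactions stayed between 1334 and 1918. Without a filter CR-spread differed from CR-day-2h in 390 genes and from CR-night-2h in 508. Leaving out a replicate gave 47 to 813 genes for CR-day-2h, 14 to 61 for CR-day-12h, 54 to 438 for CR-night-2h and 3 to 463 for CR-night-12h, and the cause was not tested.

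Of 307 results on named genes 131 kept direction and side of the threshold in every alternative, and none of those called turned direction. Of 41 clock and lipid droplet genes without a call, 22 took another sign and 12 were called in at least 1 alternative. Without the hour term 732 of the 776 calls were found again, and among the named genes those of Per1, Usp2 and Ccr2 were lost.

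The replicate letters do not pair the livers. Deviations of AL and CR-spread livers of the same letter and hour correlated at −0.38 to 0.25, over 0.1 at 4 of 12 hours. With the letter as a replicate block 785 genes were called between CR-spread and AL, 2268 and 1617 cycled, 718 differed in rhythm and 1576 with age, and the contrasts with the other restricted groups gave 227, 65, 255 and 150 genes. The sinusoidal endothelial markers called higher went from 5 to 8 of 13, and Foxo1 lost its call.

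Depth limits genes near 0 in a group, such as Cyp2b13, where a few counts set the fold change, and thinning every library to equal depth, which lowered the count to 653, shows what the shallowest library allows.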

Other observations

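Protein folding and protein turnover genes, not described above, had few calls. Of 22 chaperone and unfolded protein response genes of the endoplasmic reticulum 1 fell. Of 36 proteasome subunits 1 fell, Psmb9 of the interferon-induced form (−0.66). Of 13 proliferation genes 1 rose and 2 fell, a larger share than the 6.92% called over all genes tested. Ribosomal protein genes leaned upward by a small amount, with 2 of 42 called higher (Rpl30 and Rpl38, both 0.73) and 26 higher on adjusted p alone, at a median of 0.22. Among genes in no list whose groups did not overlap, Ildr2, a membrane protein gene, had 3.82, 8.36 and 18.2 CPM in AL and 22.3, 55.3 and 90.4 CPM in CR-spread (lowest, median, highest), the glycolate oxidase gene Hao1 173, 231 and 370.2 CPM against 97.2, 115 and 155 CPM, and Srd5a1, a steroid 5-alpha-reductase, 94.4, 143 and 215 CPM against 30.6, 41.5 and 90.5 CPM. The haemoglobin gene Hba-a2 reached 104 CPM in 1 CR-spread liver beside a group median of 11.6 CPM.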
